A study of Mus musculus with 8 samples.

Results

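The circadian clock genes were examined here as a set of 10 in the frontal cortex of WT and HAR123-KO mice. The set was chosen by gene symbol and holds Clock, Arntl, Per1, Per2, Per3, Cry1, Cry2, Nr1d1, Nr1d2 and Dbp. All 10 had a row among the 55536 genes of the count table, and all 10 passed the filter on low counts. Of the 10, only Per1 rose in HAR123-KO, by 0.25 ± 0.06 on the log2 scale (SE, 4 libraries per genotype). The positive arm, Clock and Arntl, did not pass the test, and neither did the other 7 members.

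RNA-seq had been performed on 4 WT and 4 HAR123-KO libraries of frontal cortex from mice aged 8 weeks. The HAR123-KO mice lack the mouse copy of HAR123, a neural enhancer within an intron of Smg6, in all cells, after germline deletion with CRISPR-Cas9. WT mice were littermate controls, and the strains had been backcrossed to C57BL/6J. The number of founder lines, the sex of the mice and the time of day at which tissue was taken are not given in the sources used here, and neither the labels nor the methods say whether each library came from a separate mouse. The p-values below therefore measure the spread between these libraries, which may in part be technical. The mice lived under a light and dark cycle of equal length.

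The circadian clock is a transcription loop that runs in most cells of the body, brain included. CLOCK and ARNTL (also called BMAL1) pair up and bind E-boxes, short DNA motifs, in the genes of the PER and CRY proteins, which then accumulate and block that same pair. A second loop joins on through the REV-ERB receptors Nr1d1 and Nr1d2, which repress Arntl, and the ROR receptors, which activate it. Dbp, a factor of the PAR bZIP family that binds D-boxes, passes the rhythm on to output genes. In rodent cortex the transcripts of Arntl and of the Per, REV-ERB and Dbp genes cycle in opposite phases, so that their ratio depends on the time of day. Per1 is also an early response gene, induced by neuronal activity and by glucocorticoids independently of the loop.

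Promoter sequences are shown for the genes whose E-boxes or D-boxes bear on the comparison. The RefSeq table (GRCm38.p6) held a start site for 9 of the 10 members, all but Per2, and the 250 bases upstream of each start were searched on both strands. The E-box CACGTG was found upstream of 2 of these 9 members, Per1 and Cry1, and of 6.86% of all 27025 genes. Outside the members, it was found upstream of Tef, Bhlhe41 and Ciart, among 9 further loop genes. With the variant CACGTT counted as well, the number of members was 4, with Cry2 and Nr1d1 added, against 10.9% of all genes. The D-box letters TTANGTAA were found for 1 member, Per3, and for 2.44% of all genes. The RORE core TAGGTCA was found for 0 of the 9 members and the cAMP response element TGACGTCA for 0, against 2.55% and 1.77% of all genes. A match says only that these letters are present.

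The sequences are given 5′ to 3′ on the strand of the gene, up to the first annotated exon base, with the E-boxes, the E-box variant or the D-boxes in capitals. They lie at chr11:69098699-69098947 on the plus strand for Per1, and on the minus strand at chr10:85185065-85185304 for Cry1, chr6:145865559-145865670 for Bhlhe41, chr3:95882252-95882478 for Ciart and chr4:151044666-151044915 for Per3. Per1 and Bhlhe41 are the clock loop genes that rose, Cry1 and Ciart have the same E-box and did not pass the test, and Per3 has a pair of D-boxes. Tef, whose sequence is not shown, also has CACGTG and did not pass the test (DESeq2 adjusted p = 0.918).
Per1: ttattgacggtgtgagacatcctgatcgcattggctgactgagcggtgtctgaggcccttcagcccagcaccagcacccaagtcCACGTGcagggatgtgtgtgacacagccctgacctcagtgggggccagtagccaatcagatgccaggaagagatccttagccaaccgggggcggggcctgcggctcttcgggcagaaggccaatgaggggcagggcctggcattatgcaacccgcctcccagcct
Bhlhe41: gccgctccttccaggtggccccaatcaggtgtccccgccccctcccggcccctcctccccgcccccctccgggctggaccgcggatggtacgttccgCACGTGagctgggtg
Cry1: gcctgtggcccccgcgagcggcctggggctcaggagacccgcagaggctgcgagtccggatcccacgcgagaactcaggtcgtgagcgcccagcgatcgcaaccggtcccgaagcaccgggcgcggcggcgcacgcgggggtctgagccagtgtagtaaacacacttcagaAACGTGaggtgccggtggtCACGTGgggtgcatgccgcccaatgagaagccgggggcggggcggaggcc
Ciart: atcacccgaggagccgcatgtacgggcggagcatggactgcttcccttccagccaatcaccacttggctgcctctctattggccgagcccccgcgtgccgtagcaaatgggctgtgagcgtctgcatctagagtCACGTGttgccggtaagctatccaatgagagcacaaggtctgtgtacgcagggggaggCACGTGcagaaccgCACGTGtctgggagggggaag
Per3: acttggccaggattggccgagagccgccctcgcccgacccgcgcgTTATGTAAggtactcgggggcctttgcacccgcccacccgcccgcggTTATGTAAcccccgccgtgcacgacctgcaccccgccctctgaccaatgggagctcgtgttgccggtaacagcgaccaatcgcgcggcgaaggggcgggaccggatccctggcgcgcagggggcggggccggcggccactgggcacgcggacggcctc
Distances are counted from the RefSeq start site, and the printed sequences stop short of it where an annotated exon begins earlier. The Per1 E-box starts 166 bases upstream of the start site, the Bhlhe41 E-box 153 bases and the Cry1 E-box 60 bases upstream. Another RefSeq start of Per1, with its window at chr11:69099902-69100151, had no E-box. The other capitals in Cry1 are the E-box variant, read as AACGTG on this strand, which starts 79 bases upstream. Ciart has 3 E-boxes, which start 116, 58 and 44 bases upstream.

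Total counts per library ran from 13528251 to 17051001, of which nuclear protein-coding genes received 2786320 to 3732172. Gm42418, a gene that collects ribosomal RNA reads, took 55.1% to 57.4% of the HAR123-KO and 56.8% to 58.1% of the WT counts. Over protein-coding genes, pairs of libraries within a genotype differed by more than sampling noise (chi-square per degree of freedom from 1.21 to 1.30), so each library was kept as a replicate. Pairs across the genotypes gave 1.58 to 1.72. These values do not show whether the libraries of a genotype came from separate mice. Markers of cortical projection neurons were well counted, with WT means of 3647 normalized counts for Slc17a7, a glutamate transporter of cortical projection neurons, and 727 for Cux2, an upper-layer factor. Markers of the suprachiasmatic nucleus, the master clock of the hypothalamus, were near 0 in all 8 libraries: Nms and Six6 had no count, and the 4 markers together held at most 3.52 normalized counts in any library. Normalized counts are raw counts divided by the DESeq2 size factor of the library.

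Levels between genes were compared as CPM per kilobase of exon, with the CPM taken over nuclear protein-coding counts. In WT, Nr1d1 was the most abundant member at 43.3 ± 2.82, followed by Dbp at 29.1 ± 1.47 and Cry2 at 26.7 ± 1.52 (SD, n = 4). Per1 at 22.2 ± 1.38 and Nr1d2 at 21.9 ± 0.687 came next, then Clock at 12.03 ± 0.275, Per2 at 11.7 ± 0.256 and Per3 at 10.04 ± 0.760. Cry1 at 5.18 ± 0.367 and Arntl at 5.05 ± 0.457 were the least abundant. The WT ranges of neighbors overlapped for Dbp and Cry2, Per1 and Nr1d2, Clock and Per2, and Cry1 and Arntl, so these pairs could not be ordered by range. Within each of the 8 libraries Dbp nevertheless lay above Cry2, most closely in WT replicate 3 (28.83 and 28.79). Over all 8 libraries, Nr1d1 lay at the 95.3rd percentile of 17277 protein-coding genes with any count, and Arntl at the 54.8th. Arntl, the target of the REV-ERB receptors, thus lay far below both of them in level per length.

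**Figure D1:**
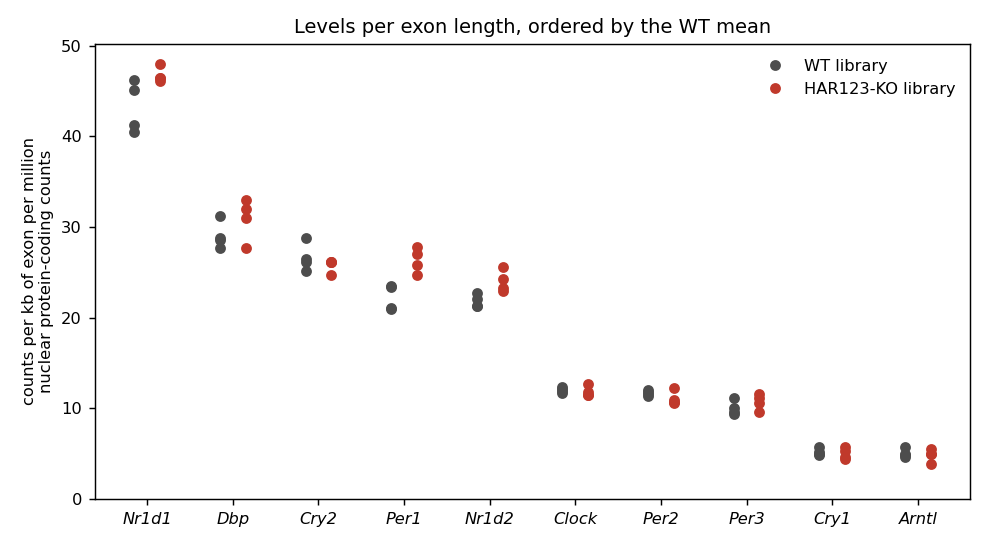
Level of each clock gene (vertical axis, CPM over nuclear protein-coding counts, per kilobase of exon) in the 4 WT (gray) and 4 HAR123-KO (red) libraries, ordered by the WT mean. Nr1d1 stands highest with a WT mean of 43.3, and Cry1 and Arntl lie lowest, near 5.18 and 5.05.

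The comparison of HAR123-KO with WT asked whether the clock loop differs between genotypes in the adult frontal cortex. Across the genome, DESeq2 gave 12758 genes an adjusted p, and 1.69% of them (215 genes, 124 higher and 91 lower) had an adjusted p under 0.05, the limit for a call here. With library totals as size factors the split was 159 higher and 39 lower. Of the 10 members, 1 was called, and it was higher, a direction in which 0.972% of all genes tested were called. With edgeR, 2.28% of genes were called, and the 1 member was again Per1. With a fold limit added, an absolute log2 fold change over 0.5, 0.298% of genes and 0 members were called. The normalized counts of the genotypes did not overlap for 2 members, Per1 and Nr1d2, and for 7.67% of genes tested. By DESeq2 those same 2 had an unadjusted p under 0.05, as did 8.78% of genes tested. By edgeR Nr1d1 was also under that limit. A log2 fold change above 0 was found for 5 of 10 members and 49.4% of genes tested. The median log2 fold change of the members was 0.03, against 0.00 for all genes tested. With so few members, a count of 1 or 2 is read as a description of those genes and not of the set.

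**Figure D2:**
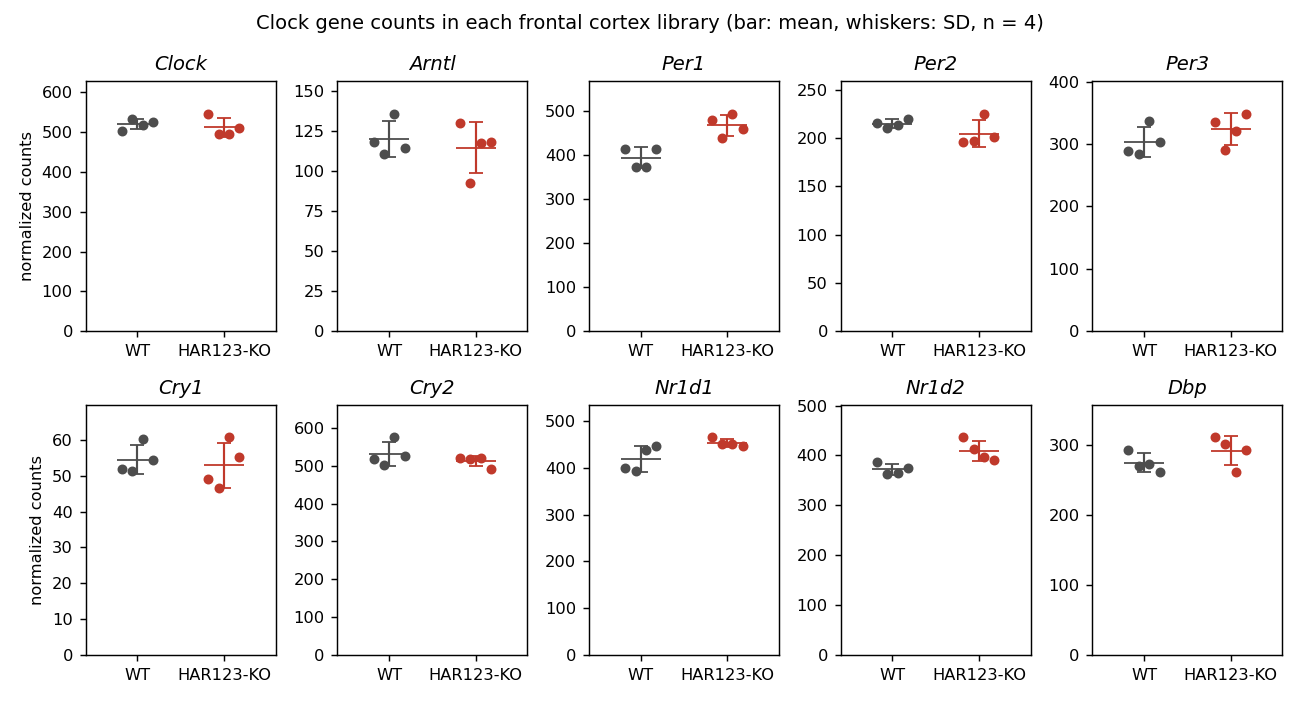
Normalized counts (vertical axes, from 0) of the 10 clock genes in each of the 4 WT (gray) and 4 HAR123-KO (red) libraries, with mean and SD. The genotypes are apart for Per1 (373.7 to 414 in WT, 438 to 494 in HAR123-KO) and Nr1d2, and overlap for the other 8.

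Clock and Arntl make up the positive arm. Clock (ENSMUSG00000029238, chromosome 5, 76209868 to 76304792, GRCm38) encodes the partner that also acts as a histone acetyltransferase. It had 503, 532, 519 and 525 normalized counts in WT replicates 1 to 4, and 547, 496, 497 and 512 in HAR123-KO replicates 1 to 4. The HAR123-KO libraries enclosed the WT range, and the log2 fold change of -0.02 ± 0.06 (SE, with an adjusted p of 0.984) had a 95% interval from -0.14 to 0.09. Clock was among the best counted members, and the interval held no difference larger than 0.14 in either direction.

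Arntl (ENSMUSG00000055116, chromosome 7, 113207465 to 113314126) encodes the partner that is needed for any rhythm. WT libraries had 118, 110.2, 136 and 114 normalized counts, and HAR123-KO libraries had 130.03, 92.2, 117 and 118. The lowest value was that of HAR123-KO replicate 2, and the groups overlapped. The log2 fold change was -0.07 ± 0.12 (SE, adjusted p = 0.969) with an interval from -0.32 to 0.17, and without HAR123-KO replicate 2 it was 0.019. Arntl was also the most variable member among the HAR123-KO libraries, with a coefficient of variation of 13.9%, where counting alone gives 9.25%.

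The negative arm holds the 3 Per genes and the 2 Cry genes. Per1 (ENSMUSG00000020893, chromosome 11, 69095217 to 69109960) had 414.3, 373.7, 373.7 and 414 normalized counts in WT replicates 1 to 4 and 479, 438, 494 and 458 in HAR123-KO replicates 1 to 4. Every HAR123-KO library lay above every WT library. The group means were 394 ± 23.4 and 467 ± 24.3 (SD, n = 4), an increase of 19.0% (95% interval from 8.99% to 30.02%). The log2 fold change of 0.25 ± 0.06 (SE) had a DESeq2 adjusted p of 0.00979, an edgeR adjusted p of 0.00214 and a limma-voom adjusted p of 0.00888. The call was lost without WT replicate 2 (adjusted p = 0.143), WT replicate 3 (0.0882), HAR123-KO replicate 1 (0.0623) or HAR123-KO replicate 3 (0.151), while the log2 fold change stayed between 0.22 and 0.28 in all 8 fits that left out a library.

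Per2 (ENSMUSG00000055866, chromosome 1, 91415982 to 91459324) is needed for a lasting daily rhythm of behavior. It had 216, 210.02, 214 and 220.4 normalized counts in WT and 196, 197, 225 and 201 in HAR123-KO. HAR123-KO replicates 1, 2 and 4 lay below the WT range and replicate 3 above it. The log2 fold change was -0.07 ± 0.09 (SE, adjusted p = 0.947), with an interval from -0.24 to 0.11. The 4 WT libraries varied by only 2.03%, less than the 6.84% that counting alone gives.

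Per3 (ENSMUSG00000028957, chromosome 4, 151003652 to 151044665), the least needed of the Per genes for the rhythm, had 289, 284, 337 and 304 normalized counts in WT and 336, 290.01, 320.5 and 349 in HAR123-KO. The groups overlapped, and the log2 fold change was 0.09 ± 0.08 (SE, adjusted p = 0.88, interval from -0.07 to 0.24). To set the Per genes against each other, the log2 ratio of raw counts was taken within each library, which removes the size factor. These 2 ratios were chosen after the values had been seen, so the p-values of their tests restate what prompted them and are not independent evidence. The log2 ratio of Per1 to Per2 was 0.939, 0.831, 0.807 and 0.91 in WT and 1.29, 1.16, 1.13 and 1.19 in HAR123-KO. It was higher in all 4 HAR123-KO libraries, by 0.32 (two-sided exact permutation p = 0.0286, the lowest value that 4 against 4 libraries can give). Adjusted over the 2 ratios, this permutation p was 0.0571. The log2 ratio of Per1 to Per3 was higher by 0.15, with overlap between the groups (two-sided exact permutation p = 0.2, adjusted p = 0.2). Leaving out a library gave differences from 0.29 to 0.34 for Per1 to Per2. For Per1 to Per3 they ran from 0.078, without WT replicate 3, to 0.20.

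The cryptochromes encode the stronger repressors of the loop. Cry1 (ENSMUSG00000020038, chromosome 10, 85131700 to 85185064) was the least counted member, with 51.8, 51.5, 60.2 and 54.6 normalized counts in WT and 49.1, 46.6, 60.7 and 55.3 in HAR123-KO. Its log2 fold change of -0.04 ± 0.18 (SE, adjusted p = 0.992) had an interval from -0.39 to 0.30, and a change of the size of that in Per1 was not detectable at this depth. Cry2 (ENSMUSG00000068742, chromosome 2, 92403646 to 92434043) had 519, 501, 575 and 526 normalized counts in WT and 520.1, 519, 520.3 and 492 in HAR123-KO. The groups overlapped, and the log2 fold change was -0.05 ± 0.06 (SE, adjusted p = 0.924, interval from -0.17 to 0.06).

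After Per1, the REV-ERB genes had the highest log2 fold changes of the members. Nr1d2 (ENSMUSG00000021775, chromosome 14, 18204054 to 18239127), which encodes REV-ERB beta, had 386, 363, 364 and 374 normalized counts in WT and 436, 414, 397 and 391 in HAR123-KO. The lowest HAR123-KO library lay just above the highest WT library. The log2 fold change of 0.14 ± 0.07 (SE, interval from 0.01 to 0.27) had an unadjusted DESeq2 p of 0.0354 and an adjusted p of 0.492, and did not pass the test. Nr1d1 (ENSMUSG00000020889, chromosome 11, 98767932 to 98775333), which encodes REV-ERB alpha, had 399, 392.25, 439 and 447 normalized counts in WT and 465, 449.8, 451 and 447 in HAR123-KO. The HAR123-KO libraries were tightly grouped (coefficient of variation 1.78%), and the lowest of them fell just inside the WT range. The log2 fold change was 0.11 ± 0.06 (SE, adjusted p = 0.666, interval from -0.02 to 0.23).

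Of the 3077 exon bases of Nr1d1, 263 lie opposite exons of Thra, a thyroid hormone receptor gene on the other strand. How strand was handled at counting is not stated, so reads there cannot be assigned with certainty to either gene. Thra averaged 1486 ± 40.7 normalized counts over the WT and 1386 ± 39.2 over the HAR123-KO libraries (SD, n = 4). The fitted log2 difference, -0.10 ± 0.04 (SE, with an adjusted p of 0.212), was opposite in sign to that of Nr1d1.

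Dbp (ENSMUSG00000059824, chromosome 7, 45705088 to 45710203), the output gene with the widest daily swing in many tissues, had 293, 269.7, 273 and 261 normalized counts in WT and 310.2, 301, 261 and 292 in HAR123-KO. HAR123-KO replicates 1 and 2 lay above all WT libraries, and replicate 3 lay among the lowest. The log2 fold change was 0.09 ± 0.08 (SE, adjusted p = 0.882, interval from -0.07 to 0.24). Of its 2993 exon bases, 18.01% lie opposite Sphk2, a sphingosine kinase gene, which had a log2 fold change of -0.19 ± 0.15 (SE, adjusted p = 0.846). Cry2 shares 295 exon bases and Arntl 33 with genes on the opposite strand whose libraries held no more than 1.69 normalized counts each. The other 6 members share no exon bases with another gene.

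**Figure D3:**
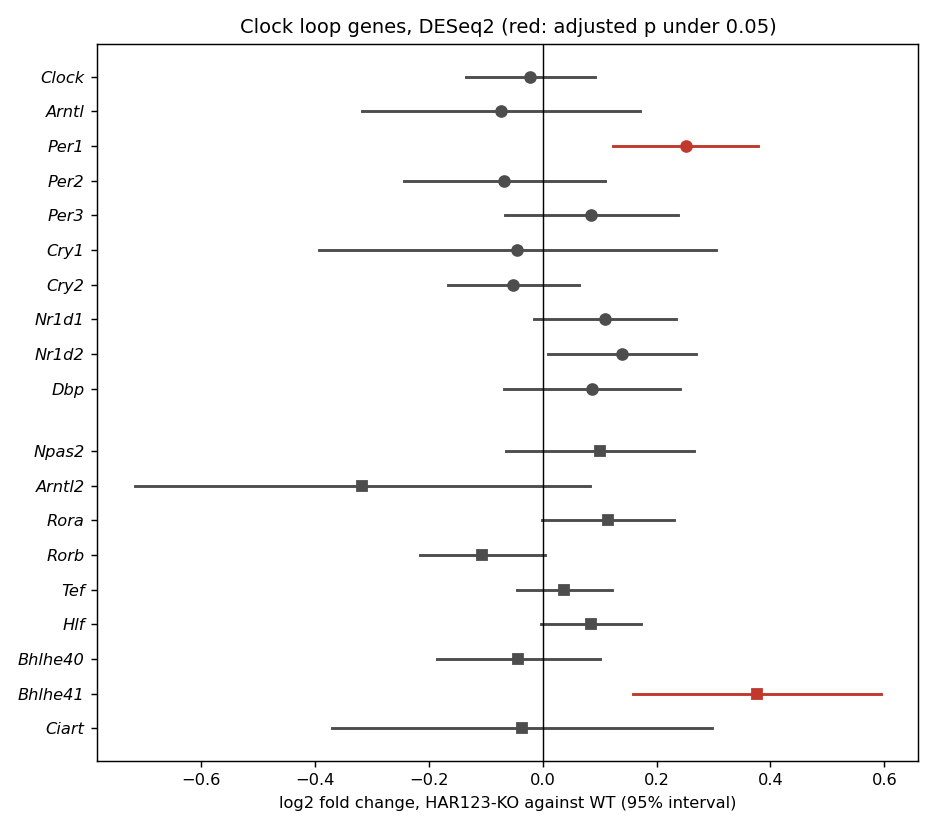
Log2 fold change of HAR123-KO against WT (horizontal axis) with 95% interval for the 10 clock genes (circles) and 9 further loop genes with an adjusted p (squares). Per1 at 0.25 and Bhlhe41 at 0.38, in red, are the ones with an adjusted p under 0.05.

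Because the arms cycle in opposite phases, the ratio of a negative-arm or output transcript to Arntl within a library was used to place the libraries relative to each other, as a description without a test. The log2 ratio of Dbp to Arntl was 1.31, 1.29, 1.01 and 1.19 in WT replicates 1 to 4 and 1.25, 1.71, 1.16 and 1.31 in HAR123-KO replicates 1 to 4. The groups overlapped, and the mean difference of 0.16 fell to 0.041 without HAR123-KO replicate 2, the library with the lowest Arntl count. The ratio of Nr1d1 to Arntl was 1.81 ± 0.12 in WT and 1.997 ± 0.20 in HAR123-KO, that of Per3 1.35 ± 0.05 and 1.51 ± 0.12, and that of Per2 0.85 ± 0.13 and 0.85 ± 0.22 (log2, SD, n = 4), each with overlap. For Per1 the ratio was 1.81, 1.76, 1.46 and 1.85 in WT and 1.88, 2.25, 2.08 and 1.96 in HAR123-KO, with no overlap and a mean difference of 0.32. The ratio therefore separated the genotypes for Per1 and not for Dbp, Nr1d1, Per2 or Per3. The collection time of each library is not given, and its part in these values was not tested.

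**Figure D4:**
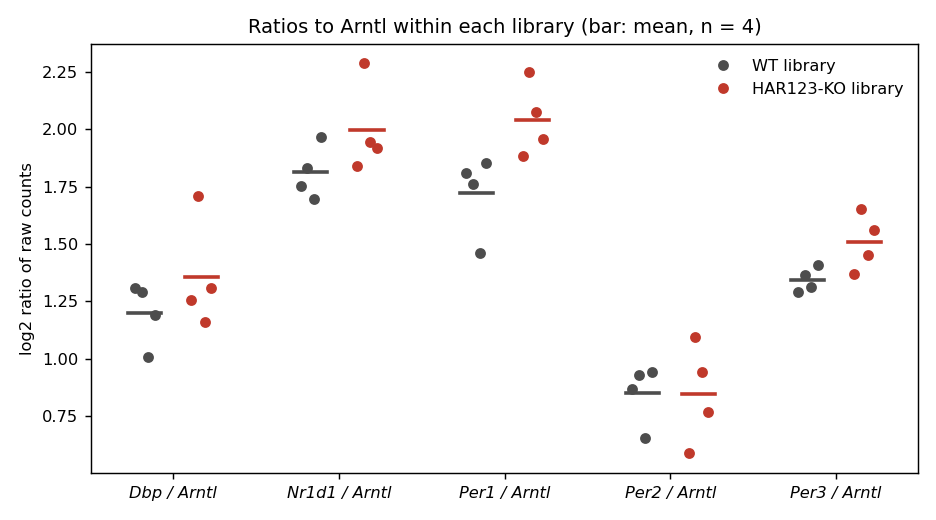
Log2 ratio of raw counts of 5 clock genes to Arntl (vertical axis) in each of the 4 WT (gray) and 4 HAR123-KO (red) libraries, with the mean as a bar. The groups are apart for Per1, with means of 1.72 and 2.04, and overlap for Dbp, Nr1d1, Per2 and Per3.

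A wider list of 28 clock genes held further loop members, enzymes that set the stability of PER and CRY, and clock-controlled genes. Of these, 25 received an adjusted p, 1 was called higher (Bhlhe41) and 0 were called lower, where 1.69% of all genes tested were called. A log2 fold change above 0 was found for 16 of the 25, against 49.4% of all genes tested, and the median was 0.05.

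Bhlhe41 (ENSMUSG00000030256, chromosome 6, 145858243 to 145865558), also known as DEC2, encodes an E-box repressor linked to sleep length in people. It had 117, 140.01, 141 and 154 normalized counts in WT and 157, 208, 162 and 191 in HAR123-KO. The lowest HAR123-KO library lay just above the highest WT library. The group means were 138 ± 15.3 for WT and 179.6 ± 24.5 for HAR123-KO (SD, n = 4). Bhlhe41 rose by 0.38 ± 0.11 on the log2 scale (SE), with adjusted p of 0.0422 in DESeq2 and 0.0148 in edgeR. Turning off the independent filter of DESeq2 ended the call (adjusted p = 0.0926), as did a minimum of 10 counts in 4 libraries (0.0883). So did leaving out WT replicates 1, 2 or 3 (adjusted p = 0.45, 0.171 and 0.0944) or HAR123-KO replicates 2, 3 or 4 (0.514, 0.0501 and 0.136). Its paralog Bhlhe40 (DEC1) averaged 334 ± 17.8 normalized counts over the WT and 324 ± 16.5 over the HAR123-KO libraries (SD, n = 4), which gave a log2 difference of -0.04 ± 0.07 (SE, with an adjusted p of 0.97). Ciart (CHRONO), another repressor of the CLOCK and ARNTL pair and the gene with 3 E-boxes shown above, averaged 58.7 ± 2.67 and 57.1 ± 6.57 (SD, n = 4), which gave a log2 difference of -0.04 ± 0.17 (SE, with an adjusted p of 0.995).

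Npas2, which can stand in for Clock in the forebrain, had 224, 238, 237 and 223 normalized counts in WT and 242, 237, 258 and 253 in HAR123-KO, a log2 fold change of 0.10 ± 0.08 (SE, adjusted p = 0.854). Arntl2, the paralog of Arntl, had a log2 fold change of -0.32 ± 0.20 (SE, adjusted p = 0.74), which was -0.15 without WT replicate 4 and -0.21 without HAR123-KO replicate 1. Its counts were low and scattered, from 37.2 to 67.4 in WT and from 30.7 to 44.9 in HAR123-KO. Of the ROR receptors, Rora averaged 512 ± 12.4 normalized counts for WT and 553 ± 40.1 for HAR123-KO (SD, n = 4). The log2 difference was 0.12 ± 0.06 (SE, with an adjusted p of 0.571). Rorb averaged 587 ± 29.9 and 546 ± 12.996 (SD, n = 4), which gave a log2 difference of -0.11 ± 0.06 (SE, adjusted p = 0.598). Among the PAR bZIP factors, Tef and Hlf were far better counted than Dbp, and their log2 fold changes were 0.04 ± 0.04 and 0.08 ± 0.04 (SE, adjusted p = 0.918 and 0.604). Nfil3, which competes with them at D-boxes, reached no more than 24.7 normalized counts per library and was given no adjusted p by DESeq2, while its edgeR adjusted p was 0.793.

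Of 11 genes for the turnover of PER and CRY and their partners, among them the kinases Csnk1d and Csnk1e, 10 received an adjusted p. By DESeq2, edgeR and limma-voom alike 0 of them were called, with 0 at an unadjusted p under 0.05 by DESeq2 and 1 by edgeR. Their median log2 fold change was 0.05. Of 6 clock-controlled genes outside the loops, among them Wee1 and Nampt, the same 3 tools called 0, and 0 had an unadjusted p under 0.05 by DESeq2 or edgeR, with a median of 0.06. Over all genes tested, DESeq2 called 1.69% and edgeR 2.28%, and 8.78% had an unadjusted p under 0.05 by DESeq2. For 10 and 6 genes tested, counts of 0 lie near these shares.

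Signals that reach the clock from outside were examined through 3 further lists. Among 10 temperature-responsive genes, DESeq2 called 3 lower and 0 higher, and edgeR 2 lower and 1 higher (Cirbp), where 1.69% and 2.28% of all genes tested were called. With library totals as size factors DESeq2 called 0 of these 4 genes. The chaperone genes Hspa5, Chordc1 and Hspa8 fell by 0.22, 0.33 and 0.09 on the log2 scale, with adjusted p of 0.0145, 0.0163 and 0.0158 by DESeq2. With library totals the adjusted p were 0.149, 0.0753 and 0.71, and the log2 fold change of Hspa8 was -0.052. By edgeR Hspa8 was not called (adjusted p = 0.0828). Leaving out replicates 2 or 4 of either genotype, or replicate 3 of WT, ended the call of Hspa5 (0.0541 to 0.117), leaving out replicates 2 or 3 of either that of Chordc1 (0.0954 to 0.176), and leaving out replicates 1 or 2 of either that of Hspa8 (0.0558 to 0.193). Cirbp, a cold-induced RNA-binding protein gene that follows the daily rhythm of body temperature, averaged 136 ± 4.52 normalized counts over the WT and 168 ± 12.6 over the HAR123-KO libraries (SD, n = 4), without overlap. Its log2 fold change was 0.31 ± 0.11 (SE), with a DESeq2 adjusted p of 0.142 and an edgeR adjusted p of 0.0409. Its relative Rbm3 had a log2 fold change of 0.06 ± 0.09 (SE, adjusted p = 0.959).

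Among 10 immediate early genes, 9 of them tested, which neuronal activity induces as it does Per1, 1 was called higher and 1 lower, where 1.69% of all genes tested were called. Nr4a1 rose by 0.36 ± 0.10 on the log2 scale (SE, adjusted p = 0.028) and Egr1 fell by 0.32 ± 0.05 (SE, adjusted p = 2.24e-08). The call of Nr4a1 held in 7 of 16 alternative fits. It ended when the filter was off (adjusted p = 0.0616), with a minimum of 10 counts in 4 libraries (0.0607), and without replicates 1, 2 or 4 of either genotype (0.0690 to 0.337). Of the 9, 4 had an unadjusted p under 0.05 by DESeq2, against 8.78% of all genes tested, and 5 had a log2 fold change above 0, with a median of 0.03. The other two under that limit were Arc and Dusp1, with log2 fold changes of 0.18 ± 0.08 and 0.43 ± 0.20 (SE, adjusted p = 0.467 for both). Egr2 had -0.42 ± 0.31 (SE, adjusted p = 0.797) without overlap between the genotypes. Fos, Junb and Npas4 had adjusted p of 0.959, 0.995 and 0.864. Among 8 glucocorticoid response genes, 7 of them tested, 3 had a log2 fold change above 0 and 4 below, with a median of -0.04, and 4 had an unadjusted p under 0.05 by DESeq2. Of the 7, 0 were called higher, against 0.972% of all genes tested, and 1 lower, Mt2, a metallothionein gene, which fell by 0.50 ± 0.09 on the log2 scale (SE, adjusted p = 6.04e-06). Mt1, its neighbor in the metallothionein family, had a log2 fold change of -0.17 ± 0.07 (SE, adjusted p = 0.326), also without overlap. Plin4, a lipid droplet gene, was left without an adjusted p by the independent filter on low counts, and with that filter off it was called higher (DESeq2 adjusted p = 0.0181). The study itself listed Plin4 among the genes that were higher in HAR123-KO frontal cortex. It had 0, 3.09, 0.847 and 2.14 normalized counts in WT and 13.3, 2.85, 12.3 and 18.1 in HAR123-KO, with overlap through HAR123-KO replicate 2, and its unadjusted DESeq2 p was 8.44e-05. Sgk1 and Tsc22d3, which glucocorticoids induce as they do Per1, had log2 fold changes of 0.22 ± 0.10 and 0.24 ± 0.11 (SE, adjusted p = 0.432 and 0.482) without overlap between the genotypes, as for 7.67% of genes tested, while Fkbp5, another such gene, had 0.19 ± 0.15 (SE, adjusted p = 0.843). Zbtb16 and Cdkn1a, also inducible by glucocorticoids, had -0.04 ± 0.08 and -0.07 ± 0.22 (SE, adjusted p = 0.981 and 0.99).

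Markers of several cell types differed between the genotypes in the same libraries, and in whole tissue a change in the number of cells of a type cannot be told apart from a change in RNA per cell. Of 10 markers of striatal projection neurons, 9 were called higher, and their summed normalized counts ran from 5579 to 5782 in WT and from 7335 to 7487 in HAR123-KO. The 8 choroid plexus markers summed to between 88.9 and 99.5 in WT and between 718 and 759 in HAR123-KO, most of it Ttr, and both of the 2 that were tested were called higher. The 6 endothelial markers summed to between 339 and 346 in WT and between 239.6 and 261 in HAR123-KO, with 1 called lower (Vwf). Of 6 markers each, 3 were called higher for oligodendrocytes, 3 lower for astrocytes and 3 lower for cortical projection neurons (2 by edgeR, without Camk2a), where DESeq2 called 1.69% and edgeR 2.28% of all genes tested. For interneurons and microglia DESeq2, edgeR and limma-voom called 0. At an unadjusted p under 0.05, DESeq2 had 1 interneuron marker and 0 microglia markers, and edgeR had 1 and 2. No marker of the choroid plexus, striatal or endothelial lists was at 0 over all libraries. The part of these differences in the Per1 and Bhlhe41 values was not tested.

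The spread among libraries of a genotype was small for most members. The coefficient of variation of normalized counts ran from 2.03% (Per2) to 9.32% (Arntl) in WT and from 1.78% (Nr1d1) to 13.9% (Arntl) in HAR123-KO, where counting alone gives 4.34% to 13.5%. WT replicate 2 was the lowest of the 4 WT libraries for 7 of 10 members, and HAR123-KO replicate 2 was the lowest of its group for 5 and the highest for 0.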

How the data were processed

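Total RNA of frontal cortex, depleted of ribosomal RNA, was sequenced as paired-end directional libraries. The authors deposited raw read counts per gene, made per the labels and methods with STAR 2.5.2b on GRCm38 and featureCounts over exons. Settings for strand and reads with several matches are not given in the sources used here. All 55536 identifiers were found in GENCODE M21 with the same start and end. There were 0 unused columns of per-sample values.

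The clock genes and lists were chosen with earlier results of these data known. Counts of all genes were tested with DESeq2 1.42.0 in R 4.3.3 (Wald test, genotype only, independent filter tuned to 0.1, which kept genes with a mean over 17.6), with Benjamini-Hochberg adjustment and a call at an adjusted p under 0.05. DESeq2 replaced its parametric dispersion trend by a local fit. edgeR 4.0.16 and limma 3.58.1 were alternatives, as were TMM factors, library totals, protein-coding size factors, a low-count limit (10 counts or more in 4 libraries), the filter off, the replicate block, a fold limit of 0.5 and leaving out each library. Ratios used raw counts. Those to Arntl were not tested, and those of Per1 to Per2 and Per3 were tested by exact permutation over libraries. The Per gene ratios, the cAMP response element and the fit of untested list genes with the filter off were added after seeing the data. The tests were first tried on simulated counts.

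Named genes were the 10 members, the further loop genes, the called genes of the other lists (at most 5 each) and exon overlap partners. Rbm3, Cirbp, Mt1, Plin4, Zbtb16, Cdkn1a, Arc, Dusp1, Egr2, Fos, Junb, Npas4, Sgk1, Tsc22d3, Fkbp5, Csnk1d, Csnk1e, Wee1 and Nampt are named outside this rule, after their values were seen. Intervals assume a normal log2 fold change. Promoters came from the RefSeq table of GRCm38.p6, and levels per length used the exon length in the deposited table. Some genes of the lists are not reported here by name.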

Additional observations from a re-analysis of the deposited data

Results flagged for a closer look

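The highest and lowest library of each group of 4 was set against the other 3 with Dixon's criterion at the 95% level, over 52 groups for the members, the further loop genes and the ratios to Arntl. It set apart 1 group, where chance gives about 2.6. HAR123-KO replicate 4 had 492 normalized counts of Cry2, while HAR123-KO replicates 1 to 3 had 519 to 520.3. It lay only slightly below the lowest WT library, at 501.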

How the results depend on the processing

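Of 160 alternative fits of the 10 members' log2 fold changes, 151 kept the direction and the side of the threshold, 5 lost the call of Per1 and 4 reversed a difference that was not called. Library totals as size factors moved the median of all genes by 0.039 on the log2 scale, and Clock, moved by as much, came to 0.017. Leaving out a library gave -0.14 to 0.019 for Arntl, -0.12 to 0.015 for Cry1 and -0.12 to 0.0044 for Ciart, and Ciart was 0.00235 with library totals. Without a reversal, it gave -0.078 to -0.0056 for Cry2, -0.12 to -0.046 for Per2 and -0.21 to -0.097 for Sphk2. Per3 ran from 0.049 to 0.145 and Dbp from 0.056 to 0.139. The number of members called ran from 0 to 1 when a library was left out, was 0 with the replicate block or the fold limit of 0.5, and was 1 otherwise. The number of wider clock genes called ran from 0 to 1 when a library was left out, was 0 with a minimum of 10 counts in 4 libraries, with the filter off, with the block or with the fold limit, and was 1 otherwise. All of these calls were higher.

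Across the genome, the count of 215 became 331 with edgeR (148 lower) and 38 with the fold limit (29 higher, 9 lower), 39 were lower with library totals, and leaving out a library gave 133 to 185 calls (79 to 102 higher, 54 to 83 lower). Without WT replicate 1 it was 133 and without HAR123-KO replicate 3 it was 142. The independent filter was tuned anew in each of these fits. Genes tested ran from 7146 without HAR123-KO replicate 4 to 18634 without WT replicate 1. The adjusted p of these fits, also for single genes, were thus taken over different numbers of genes. With the replicate block, 22 genes were called (18 higher, 4 lower), and Per1 had a log2 fold change of 0.25 with an adjusted p of 1. Bhlhe41, Nr4a1, Hspa5, Chordc1 and Hspa8 also came to 1, and Egr1 and Mt2 to 0.146 and 0.204. The numbers were not taken to pair the libraries, since same-numbered libraries deviated with correlations from -0.015 to 0.018 over 8807 genes and 1 of 4 correlated best with its own number. The cause of the lost calls was not tested. The mean difference in the log2 ratio to Arntl, leaving out a library, ran from 0.041 to 0.22 for Dbp, 0.089 to 0.24 for Nr1d1, 0.23 to 0.37 for Per1, -0.083 to 0.085 for Per2 and 0.12 to 0.21 for Per3. The number of members with an E-box was 4 with the variant added. Depth limits Cry1 and Arntl most.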
